A study of Mus musculus with 8 samples.

Results

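The cyclin-dependent kinase (CDK) inhibitors of the INK4 and CIP/KIP families were described in whole skin of newborn mice that lacked pRb, p53, both or neither in their stratified epithelia. The members were all probe sets, the groups of oligonucleotides that measure 1 transcript, whose single gene symbol in the platform annotation was Cdkn1b, Cdkn1c, Cdkn2a, Cdkn2b, Cdkn2c or Cdkn2d. This gave 7 probe sets for 6 genes, of 12393 genes with a probe set of their own and 22690 probe sets in all. Cdkn1b had 2 and each other gene had 1. Cdkn1a, the third CIP/KIP gene, was not taken as a member because it is a direct p53 target.

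The data were 8 microarrays, 2 for each of 4 genotypes: pRb-/-;p53-/- (double-null below), pRb-/-;p53+/+ (pRb-null), pRb+/+;p53-/- (p53-null) and Control. All mice were FVB newborns, and each array held RNA pooled from 3 animals. The sources used here do not name the recombinase or promoter behind the loss of either gene, nor say whether the control mice carried any of these alleles, and whole skin also holds muscle, fat, dermis and blood cells in which neither gene was aimed at. The sources do not say that the duplicate arrays came from different pools of animals. If they did not, every p-value below reflects technical spread alone.

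CDK inhibitors brake the cell cycle by binding cyclin-dependent kinases. The INK4 proteins p16 and p15 (Cdkn2a and Cdkn2b), p18 (Cdkn2c) and p19 (Cdkn2d) bind CDK4 and CDK6 and keep them from cyclin D, whereas the CIP/KIP proteins p27 (Cdkn1b) and p57 (Cdkn1c) bind complexes of cyclin and kinase, chiefly those of CDK2. Active CDK4, CDK6 and CDK2 phosphorylate pRb and free the E2F transcription factors, so the inhibitors act upstream of pRb. Cdkn2a also encodes p19ARF, from a separate first exon and another reading frame, which stabilizes p53 by holding back Mdm2. In skin, p27 and p57 are known from keratinocytes that leave the cycle to differentiate, and p16 and p15 from stressed or senescent cells.

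Promoter sequences of 300 bases, 250 before and 50 after a transcript start, were taken from RefSeq (build GRCm38.p6). They matched 5 of the 6 genes with 7 promoters. Cdkn1c was not matched. They were searched on both strands for the E2F letters TTTCCCGC, TTTCGCGC, TTTGCCGC and TTTGGCGC, which the genotypes bear on because pRb holds E2F factors back. Only 1 of the 7 held a match: the upstream start of Cdkn2a, which is the Arf start, with its first letter at position −99 from the start. Of all 32851 promoters in the table, 2.26% held such letters. The 2 sequences shown are that promoter, with the E2F letters in capitals, and the promoter of Cdkn1b, the member whose 1434045_at probe set separated the genotypes by pRb. The other Cdkn1b probe set, 1419497_at, did not separate them, and neither passed after adjustment.
Cdkn2a, upstream start, chr4:89294570-89294869, minus strand: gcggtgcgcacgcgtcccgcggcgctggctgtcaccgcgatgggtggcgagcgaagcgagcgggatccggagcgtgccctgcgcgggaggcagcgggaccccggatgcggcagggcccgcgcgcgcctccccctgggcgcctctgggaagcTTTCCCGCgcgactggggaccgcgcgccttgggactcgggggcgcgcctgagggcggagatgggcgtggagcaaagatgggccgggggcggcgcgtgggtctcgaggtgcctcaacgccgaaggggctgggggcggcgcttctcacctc
Cdkn1b, chr6:134920151-134920450, plus strand: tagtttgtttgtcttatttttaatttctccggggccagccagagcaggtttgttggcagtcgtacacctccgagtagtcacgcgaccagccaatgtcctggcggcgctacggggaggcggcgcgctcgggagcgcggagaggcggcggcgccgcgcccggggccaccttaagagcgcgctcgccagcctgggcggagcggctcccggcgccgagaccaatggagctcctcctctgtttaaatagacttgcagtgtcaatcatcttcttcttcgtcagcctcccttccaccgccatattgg
The letters GGGCGG of a GC box stood in 6 of the 7 promoters, all except the downstream Cdkn2c start, against 35.7% of all promoters. The SMAD letters CAGACA were in 1, the downstream Cdkn2c start, against 21.0%, and the FOXO letters TGTTTAC were in none, against 3.65%. These matches describe letters in a window and were not tested as binding sites.

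The authors deposited scores, standardized so that each probe set has mean 0 and SD 1 across the 8 arrays. A score therefore says on which arrays a gene was high or low relative to its own spread, and neither a level nor a fold change can be given, nor can one gene be set against another or the tissue be checked by marker levels. In a bulk sample of this kind, fewer cells of a type and less RNA per cell cannot be told apart. The probe set of Rb1, the gene deleted in both pRb-lacking genotypes, scored −0.546 and −1.90 in double-null, −0.709 and 0.439 in pRb-null, 0.498 and 0.221 in p53-null, and 1.20 and 0.797 in control skin. Its difference from control was −2.23 ± 0.65 (SE) in double-null and −1.14 ± 0.65 in pRb-null, with an adjusted p of 0.206 and 0.627 by limma, so it did not pass and gives no check of the labels. Trp53 was not analysed here. Of the 64 spike-in and housekeeping control probe sets, 31.2% had their 2 lowest scores on the control arrays, below all 6 mutant arrays, against 6.94% of the other probe sets. The part of this in the differences from control below was not tested.

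None of the 7 probe sets passed the test in any comparison. The test was limma's linear model over 22626 probe sets (the table without its control probe sets), with an ordinary statistic, and a call needed a Benjamini-Hochberg adjusted p under 0.05. In the test of any difference among the 4 genotypes, 0 of 7 were called, where 0.159% of all probe sets were. At an unadjusted p under 0.05 there were 2 of 7, Cdkn1c and Cdkn1b (1434045_at), against 18.6% of all. The lowest adjusted p was 0.146, for Cdkn1c. The share of a probe set's variance that lay between the genotypes is a plain measure of how cleanly the arrays sorted by genotype. Its median over all probe sets was 61.4%, and the share expected under equal genotype means was 42.9%. It was 93.7% for Cdkn1c, 86.8% for Cdkn1b (1434045_at) and 77.6% for Cdkn2d, and it was below that median for the other 4 members, at 57.5% for Cdkn2a, 55.9% for Cdkn2b, 41.9% for Cdkn2c and 21.9% for Cdkn1b (1419497_at).

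**Figure D1:**
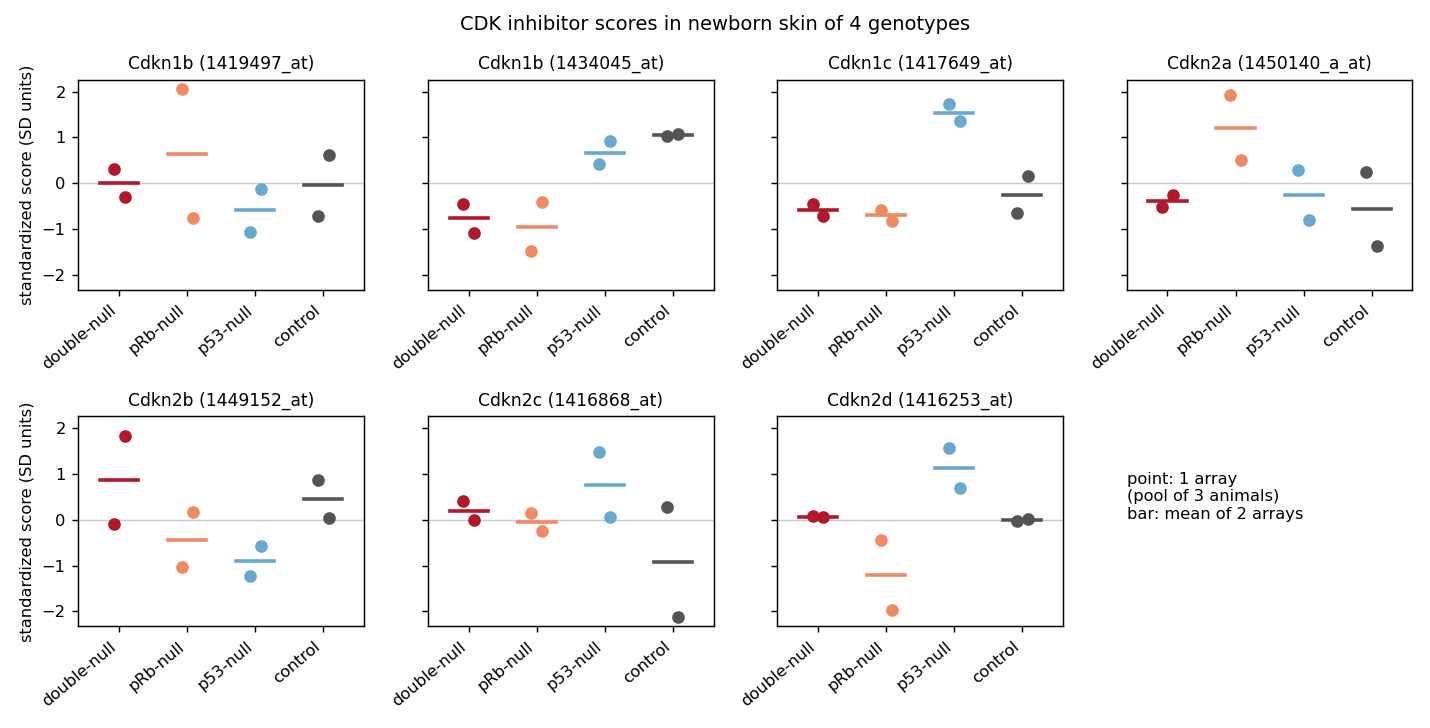
Standardized score (vertical axis, in units of each probe set's SD over the 8 arrays) of the 7 CDK inhibitor probe sets in double-null, pRb-null, p53-null and control skin; each point is 1 array and each bar the mean of 2. Cdkn1c is high on both p53-null arrays (1.73 and 1.36), and Cdkn1b (1434045_at) is below 0 on all 4 arrays without pRb and above 0 on the other 4.

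Cdkn1c encodes p57, the imprinted CIP/KIP inhibitor that is expressed from the maternal copy. Its scores were −0.464 and −0.712 in double-null, −0.582 and −0.822 in pRb-null, 1.73 and 1.36 in p53-null, and −0.648 and 0.146 in control skin. Both p53-null arrays lay above all 6 other arrays, a pattern that 6.01% of all probe sets had, while the double-null, pRb-null and control arrays overlapped one another. The difference of p53-null from control was 1.79 ± 0.33 (SE; n = 2 each), with a limma p of 0.00572 and an adjusted p of 0.169. The difference of double-null from p53-null was −2.13 ± 0.33 (adjusted p = 0.198), and that of pRb-null from p53-null was −2.24 ± 0.33 (adjusted p = 0.136). The high score of p53-null skin was thus not seen on the double-null arrays, and none of these differences passed after adjustment. Double-null and pRb-null skin differed from control by −0.337 (95% confidence interval −1.26 to 0.586) and −0.451 (−1.37 to 0.472). The interaction, which asks whether loss of pRb shifts the score by a different amount in p53-null than in control skin, was −1.68 ± 0.47, with an unadjusted p of 0.0234 and an adjusted p of 0.396 by limma.

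Several marker lists were extreme on the same p53-null arrays, as the plot of list means shows. The mean score of 7 mast cell markers was 0.265 to 0.389 in double-null, −0.899 to −0.210 in pRb-null, 0.918 to 1.01 in p53-null and −0.830 to −0.640 in control skin, with 6 of 7 higher in p53-null than in control at an unadjusted p under 0.05, a bound that 14.6% of all probe sets passed in either direction. The mean of 6 adipocyte markers was 0.692 to 1.00 in double-null, 0.600 to 0.674 in pRb-null, −1.47 to −1.28 in p53-null and −0.207 to −0.0219 in control skin, with 5 of 6 lower in p53-null than in control at that bound. The mean of 7 dermal fibroblast markers was 0.583 and 0.343 in p53-null skin and −0.494 to 0.113 on the other arrays. At that bound 2 were higher and 1 lower in p53-null than in control. None of the markers in these lists passed after adjustment in that comparison, and their part in the Cdkn1c score was not tested.

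Cdkn1b encodes p27, and its 2 probe sets disagreed. By 1434045_at the scores were −0.445 and −1.09 in double-null, −1.49 and −0.409 in pRb-null, 0.411 and 0.920 in p53-null, and 1.02 and 1.08 in control skin. All 4 arrays without pRb were below all 4 arrays with it, a separation in this direction that 2.42% of all probe sets showed. The difference from control was −1.82 ± 0.48 (SE) in double-null and −2.00 ± 0.48 in pRb-null, with a limma p of 0.0194 and 0.0141 and an adjusted p of 0.182 and 0.338. In p53-null skin it was −0.386 ± 0.48 (95% confidence interval −1.72 to 0.949). Double-null and pRb-null skin differed from each other by 0.185 ± 0.48 (−1.15 to 1.52). Averaged over both backgrounds, the pRb-lacking minus the pRb-intact genotypes gave −1.72 ± 0.34, with an adjusted p of 0.229 by limma. This averaged comparison was added after the data were seen.

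By the other Cdkn1b probe set, 1419497_at, no genotype stood apart. Its scores were 0.307 and −0.310 in double-null, 2.05 and −0.764 in pRb-null, −1.06 and −0.122 in p53-null, and −0.711 and 0.609 in control skin. The 2 pRb-null arrays spanned nearly its whole range, and its SD within genotypes, 1.17, was above the median of all probe sets, 0.822. The differences from control were 0.050 (95% confidence interval −3.20 to 3.30) in double-null, 0.695 (−2.55 to 3.94) in pRb-null and −0.541 (−3.79 to 2.71) in p53-null. Over the 8 arrays the 2 probe sets had an r of −0.452. Among 12821 pairs of probe sets for 1 gene the median r was 0.215 and 34.7% were below 0, and 9.70% were at or below that of Cdkn1b. With the 2 averaged, the difference from control was −0.884 in double-null and −0.654 in pRb-null (adjusted p = 0.457 and 0.762 by limma), so the direction in pRb-lacking skin rests on 1434045_at alone. The adipocyte markers, given above, scored higher on all 4 pRb-lacking arrays than on the other 4, and all 6 were higher in the averaged comparison at an unadjusted p under 0.05, where 12.8% of all probe sets passed that bound. Their part in the Cdkn1b score was not tested.

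**Figure D2:**
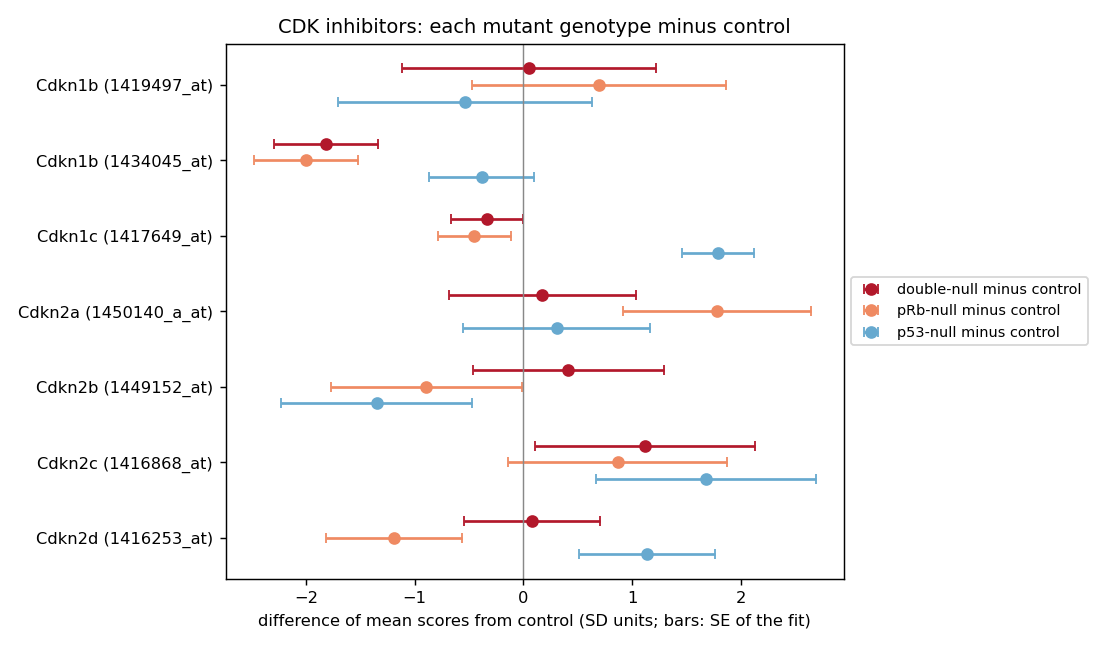
Difference of the mean score from control (horizontal axis, SD units, with the SE of the fit as bars) for double-null, pRb-null and p53-null skin, 1 row per probe set. Cdkn1b (1434045_at) is at −1.82 in double-null and −2.00 in pRb-null skin and Cdkn1c at 1.79 in p53-null skin, while the SE of the INK4 genes runs between 0.63 and 1.01.

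Of the INK4 genes, Cdkn2d, which encodes p19INK4d, had the smallest SD within genotypes, 0.626. By genotype the SD was 0.0189 in double-null and 0.0269 in control, but 1.08 in pRb-null and 0.626 in p53-null skin. The Cdkn2d scores were 0.0861 and 0.0593 in double-null, −0.432 and −1.96 in pRb-null, 1.57 and 0.687 in p53-null, and −0.0237 and 0.0143 in control skin. The order was p53-null, double-null, control and pRb-null, with no overlap between any pair of genotypes, which 4.58% of all probe sets also showed. Double-null and control were nearly at the same score, with a difference of 0.077 and a 95% confidence interval of −1.66 to 1.81. The pRb-null and p53-null genotypes lay on either side, and pRb-null minus p53-null was −2.33 ± 0.63 (SE), with a limma p of 0.0205 and an adjusted p of 0.225. The differences from control, −1.19 ± 0.63 in pRb-null and 1.13 ± 0.63 in p53-null, had an adjusted p of 0.594 and 0.487. They rest largely on 1 array each: without pRb-null replicate 2 the first was −0.427, and without p53-null replicate 1 the second was 0.692. Both p53-lacking genotypes lay above both p53-intact ones, a separation in this direction that 5.89% of all probe sets showed. The averaged difference, also added after the data were seen, was 1.20 ± 0.44, with an adjusted p of 0.233 by limma. The gap behind it was small, with the lowest p53-lacking array at 0.0593 and the highest p53-intact array at 0.0143. Mast cell markers split the same way, with list means of 0.265 to 1.01 on the p53-lacking arrays and −0.899 to −0.210 on the p53-intact arrays, and 4 of 7 were called higher in the averaged comparison. Endothelium markers averaged 0.0722 to 0.961 on the p53-lacking arrays and −0.839 to −0.113 on the p53-intact arrays, with 0 of 6 called. Hair follicle markers averaged −1.56 to −0.0264 on the p53-lacking arrays and 0.550 to 0.777 on the p53-intact arrays, and 6 of 10 were called lower. Of all probe sets 1.26% were called there, and none was with the moderated statistic. The part of these markers in the Cdkn2d score was not tested. Cdkn2d and Cdkn1c were the members most alike over the 8 arrays, with an r of 0.778, and both were highest on the p53-null arrays.

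Cdkn2a encodes both p16 and p19ARF, and the suffix of its probe set, 1450140_a_at, marks a probe set shared by transcripts of 1 gene, so the value is not assigned to either product. Its scores were −0.518 and −0.264 in double-null, 1.92 and 0.509 in pRb-null, 0.293 and −0.810 in p53-null, and 0.253 and −1.38 in control skin. Both pRb-null arrays were above the other 6, a pattern found in 7.65% of all probe sets, and the other 3 genotypes overlapped. The difference of pRb-null from control was 1.78 ± 0.86 (SE; 95% confidence interval −0.615 to 4.17), with an adjusted p of 0.569 by limma. It was 0.961 without control replicate 2 and 1.07 without pRb-null replicate 1. The double-null arrays were below both pRb-null arrays, and 50.1% of all probe sets had these genotypes apart in either direction. Double-null minus pRb-null was −1.61 ± 0.86 (adjusted p = 0.402), or −0.900 without pRb-null replicate 1. Double-null differed from control by 0.174 (−2.22 to 2.57). The upstream Cdkn2a promoter printed above holds the E2F letters and the downstream Cdkn2a promoter does not. Since the probe set is not assigned to either product, its score cannot be matched to that promoter. A part of the E2F letters in the score was not tested.

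Cdkn2b, which encodes p15 and is the next gene to Cdkn2a in the RefSeq table with 0 genes listed between them, had a different order. Its scores were −0.0821 and 1.83 in double-null, −1.04 and 0.163 in pRb-null, −1.22 and −0.566 in p53-null, and 0.867 and 0.0474 in control skin. Both p53-null arrays were below the control and double-null arrays, and the 2 double-null arrays lay far apart. Of all probe sets, 52.7% had no overlap between p53-null and control arrays, and 49.5% had none between double-null and p53-null arrays. The difference from control was 0.414 ± 0.88 in double-null, −0.893 ± 0.88 in pRb-null and −1.35 ± 0.88 in p53-null skin, with an adjusted p of 0.837, 0.779 and 0.550. The interaction was 2.66 ± 1.24 (unadjusted p = 0.0992, adjusted p = 0.565 by limma). Over the 8 arrays Cdkn2b and Cdkn2a had an r of −0.298.

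Cdkn2c, which encodes p18 and is known as an E2F-responsive gene, had scores of 0.404 and 0.00155 in double-null, 0.144 and −0.245 in pRb-null, 1.47 and 0.0547 in p53-null, and 0.289 and −2.12 in control skin. One control array held the lowest score by far, and each mutant genotype overlapped the control range. The differences from control were 1.12 (95% confidence interval −1.68 to 3.92) in double-null, 0.865 (−1.93 to 3.66) in pRb-null and 1.68 (−1.12 to 4.48) in p53-null. Without control replicate 2, which holds that low score, they were −0.0859, −0.340 and 0.475.

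**Figure D3:**
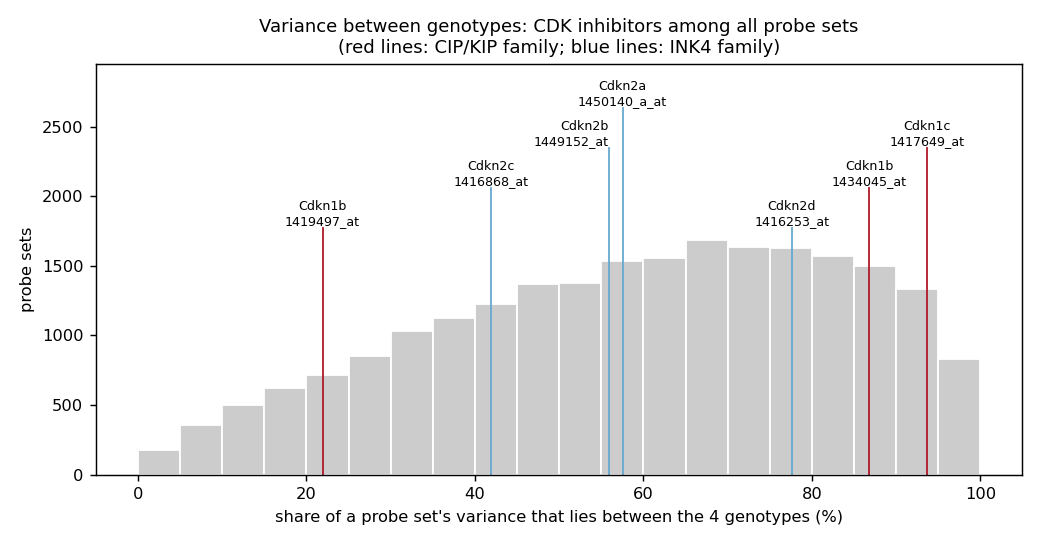
Number of probe sets (vertical axis) by the share of their variance that lies between the 4 genotypes (horizontal axis, percent, bins of 5), with the 7 CDK inhibitor probe sets as lines. Cdkn1c stands at 93.7% and Cdkn1b (1434045_at) at 86.8%, the other 5 between 21.9% and 77.6%. The median of all probe sets is 61.4%, and the share expected under equal genotype means is 42.9%.

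Counted by comparison, 0 of 7 members were called in each, and the share of all probe sets called was 0.849% for double-null minus control, 0% for pRb-null minus control, 0.119% for p53-null minus control, 0.407% for double-null minus pRb-null, 0.0354% for double-null minus p53-null, 0.0575% for pRb-null minus p53-null and 0% for the interaction. At an unadjusted p under 0.05, 1 member differed in double-null minus control, Cdkn1b (1434045_at), against 18.6% of all probe sets. In pRb-null minus control it was that probe set again, against 10.6%, and in p53-null minus control it was Cdkn1c, against 14.6%. The count was 0 in double-null minus pRb-null, against 18.6%. It was 2 in double-null minus p53-null (Cdkn1b 1434045_at and Cdkn1c), against 11.9%, and 3 in pRb-null minus p53-null (the same pair and Cdkn2d), against 16.2%. In the interaction it was 1, Cdkn1c, against 10.4%. These comparisons share their arrays, so their counts are not independent.

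The arrays of the 2 genotypes did not overlap for 2 of 7 members in double-null minus control, where 51.2% of all probe sets did not, for 3 in pRb-null minus control (41.0%) and for 4 in p53-null minus control (52.7%). Without a control array in the comparison they did not overlap for 2 in double-null minus pRb-null (50.1%), 4 in double-null minus p53-null (49.5%) and 4 in pRb-null minus p53-null (54.4%). In the averaged comparisons 0 members were called, against 0.00442% of all probe sets for loss of pRb and 1.26% for loss of p53. At the unadjusted bound there were 2 for loss of pRb (Cdkn1b 1434045_at and Cdkn1c), against 12.8%, and 1 for loss of p53 (Cdkn1c), against 22.1%. The groups did not overlap for 1 member in each, against 5.26% and 14.0%. For Cdkn1c the averaged difference was −1.29 for loss of pRb and 0.953 for loss of p53. Its groups overlapped in both, and only its p53-null arrays stood apart. Its pRb-null minus control difference was −0.451 and its double-null minus pRb-null difference 0.114. With limma's moderated statistic 0 of all probe sets were called in each of these comparisons, so 0 calls among the members say nothing further about them. The median difference of the members was 0.077 in double-null, −0.451 in pRb-null and 0.306 in p53-null minus control, where the medians over all probe sets were −0.0081, 0.065 and −0.155.

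The cyclins and kinases that the inhibitors bind were read from a list of 13 genes, 12 of them measured. None passed in any comparison. Their median difference in double-null minus control was −0.312, against −0.0081 over all probe sets. At the unadjusted bound 2 were higher and 3 lower there, and the share of all probe sets past that bound in either direction was 18.6% in double-null, 10.6% in pRb-null and 14.6% in p53-null minus control, which also stand behind the counts of the lists that follow. The count was 0 in pRb-null and 1 higher and 1 lower in p53-null minus control. The members with the smallest p in double-null minus control were the cyclin D genes Ccnd1, at −2.09 ± 0.32 (SE; adjusted p = 0.0919), and Ccnd2, at −1.87 ± 0.40 (adjusted p = 0.140). Both encode partners of CDK4 and CDK6, the kinases that the INK4 proteins bind. The list mean was −0.357 and −0.558 in double-null, 0.473 and 0.279 in pRb-null, 0.220 and 0.213 in p53-null, and −0.206 and −0.0643 in control skin.

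The ubiquitin ligase genes that mark p27 for degradation, 9 measured of 10, were also lowest on the double-null arrays. Their list mean was −0.577 and −1.53 in double-null, 0.548 and 0.409 in pRb-null, 0.479 and 0.295 in p53-null, and 0.153 and 0.221 in control skin, so the double-null arrays did not overlap the other 6. In double-null minus control their median difference was −1.39, against −0.0081 over all probe sets, and 4 of 9 were lower and 0 higher at the unadjusted bound, against 18.6% of all in either direction. None passed after adjustment. The scaffold Cul1 was at −2.22 ± 0.37 (SE; adjusted p = 0.104) and the adaptor Ddb1 at −2.34 ± 0.48 (adjusted p = 0.133).

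Genes that regulate the inhibitors were read from 3 further lists. Of 17 measured polycomb and other regulators of the Ink4 locus, 0 passed and 1, Id1, was lower in double-null than in control at the unadjusted bound (−1.49 ± 0.49, adjusted p = 0.237). Tbx3, a repressor of the locus, was at 1.93 ± 0.70 (adjusted p = 0.271). Of 14 genes listed for the TGF-beta and FOXO pathways upstream of Cdkn2b and Cdkn1b, 0 passed, with 1 higher and 4 lower in double-null at the unadjusted bound. The list was not split into activators and repressors. The receptor Tgfbr2 was at 2.21 ± 0.46 (adjusted p = 0.134) and Foxo3 at −1.92 ± 0.50 (adjusted p = 0.180). Of 10 measured pocket protein and E2F genes, 0 passed in any comparison, and 2, Rb1 and Tfdp1, were lower in double-null than in control at the unadjusted bound. Tfdp1, the partner of E2F factors, differed from control by −1.05 ± 0.33 (adjusted p = 0.223) in double-null and by 1.49 ± 0.33 (adjusted p = 0.309) in pRb-null.

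Among 12 measured imprinted genes, the class to which Cdkn1c belongs, the list mean was −0.0708 and −0.0539 in double-null, −0.0564 and 0.0443 in pRb-null, 0.348 and 0.453 in p53-null, and −0.385 and −0.280 in control skin. The p53-null arrays were the highest here as for Cdkn1c. In p53-null minus control 3 were higher and 1 lower at the unadjusted bound, and 0 passed. The list had 1 call in any comparison, where 0.407% of all probe sets were called: Peg3, a paternally expressed zinc finger gene, was lower in double-null than in pRb-null skin, with a difference of −2.48 ± 0.17 (SE; adjusted p = 0.0440 by limma). With the moderated statistic and with the replicate block that comparison had 0 calls, so the call on Peg3 was lost. Grb10 differed from control by 2.44 ± 0.34 (adjusted p = 0.115) in p53-null. Slc22a18, which lies in the imprinted region of Cdkn1c, had the opposite sign to Cdkn1c in p53-null minus control, at −1.76 ± 0.41 (adjusted p = 0.215). In double-null minus control Slc22a18 was at −2.43 ± 0.41 (adjusted p = 0.103). Cdkn1c was at −0.337 there, with a 95% confidence interval of −1.26 to 0.586, so its sign is not settled.

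Proliferation markers, 13 measured of 14, had list means of −0.0723 and −0.106 in double-null, 0.476 and 0.812 in pRb-null, 0.0798 and −0.212 in p53-null, and −0.673 and −0.304 in control skin. None passed in any comparison. Against control, 3 were higher and 2 lower in double-null at the unadjusted bound, 4 higher in pRb-null and 2 higher in p53-null. The helicase subunit Mcm6 was at 2.41 ± 0.27 (SE; adjusted p = 0.0637) and the proliferation antigen Mki67 at −2.14 ± 0.25 (adjusted p = 0.0653) in double-null minus control, so these 2 markers had opposite signs.

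**Figure D4:**
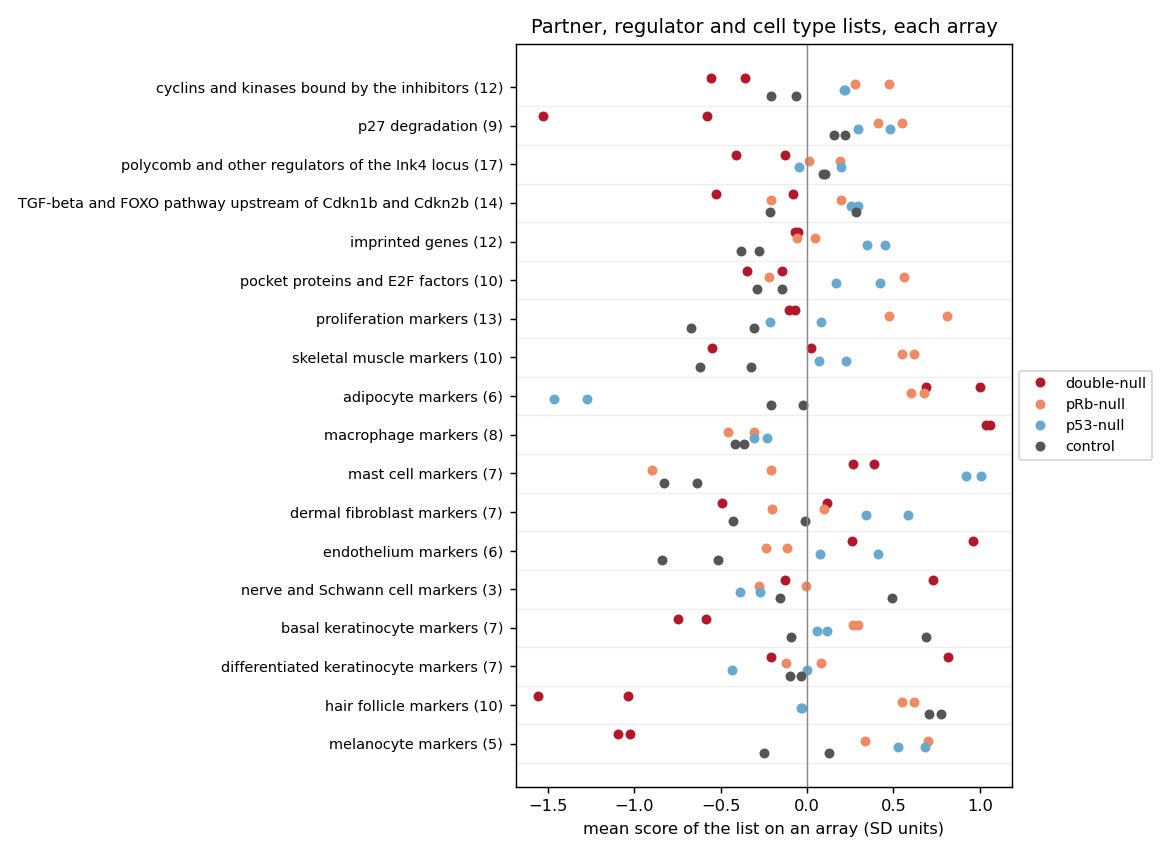
Mean standardized score on each array (horizontal axis, SD units) of the partner, regulator and cell type marker lists, with the number of measured genes in parentheses; each point is 1 array. The p53-null arrays are highest for mast cell markers (0.918 and 1.01) and lowest for adipocyte markers (−1.28 and −1.47), and the double-null arrays are lowest for p27 degradation (−0.577 and −1.53) and hair follicle markers (−1.56 and −1.04).

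Marker lists of other cell types also differed between the genotypes. Hair follicle markers averaged −1.56 and −1.04 in double-null, 0.550 and 0.621 in pRb-null, −0.0264 and −0.0331 in p53-null, and 0.704 and 0.777 in control skin. Of 10, 6 (the keratin genes Krt25, Krt34, Krt35, Krt71 and Krt86, and Msx2) were called lower in double-null than in control, against 0.849% of all probe sets. With the moderated statistic and with the replicate block no probe set was called in that comparison, these 6 included. Basal keratinocyte markers averaged −0.588 and −0.750 in double-null, 0.297 and 0.267 in pRb-null, 0.0599 and 0.118 in p53-null, and −0.0905 and 0.687 in control skin, with 3 of 7 lower and 0 higher in double-null at the unadjusted bound. The list mean of 8 macrophage markers was 1.06 and 1.04 in double-null skin and lay between −0.459 and −0.234 on the other 6 arrays. At the unadjusted bound 5 were higher and 0 lower in double-null minus control, against 18.6% of all probe sets in either direction. In p53-null minus control 2 were higher and 1 lower, against 14.6%. Skeletal muscle markers averaged 0.551 and 0.622 in pRb-null skin, the highest 2 values of the 8 arrays. Of 10, 6 were higher and 1 lower in pRb-null minus control at the unadjusted bound, against 10.6% of all probe sets in either direction. The counts were the same in p53-null minus control, against 14.6%. Cdkn2a and the list mean of the proliferation markers were also highest on the pRb-null arrays. The part of these lists in the inhibitors' scores was not tested.

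For each member, the 3 genes with the highest Pearson r over the 8 arrays were listed, with no test, since 32 to 77 probe sets had an r above 0.9 with each member. Cdkn1c was most like Glo1 (0.995), Zmym4 (0.992) and Gjc1 (0.981). Cdkn1b was most like Cstf2t (0.987), Csgalnact1 (0.972) and Asxl1 (0.964) by 1434045_at, and like Cnr2 (0.965), Ihh (0.953) and Fabp1 (0.949) by 1419497_at. Cdkn2a was most like Ints7 (0.956), another probe set of Asxl1 (0.948) and Sptb (0.940). Cdkn2b was most like Prmt3 (0.984), Ugt2b34 (0.978) and Ywhab (0.966), Cdkn2c like Tceal8 (0.969), Cyp4a12a (0.957) and Mapk8 (0.955), and Cdkn2d like Prkra (0.967), Hs2st1 (0.964) and Cfap410 (0.959). Asxl1 stands near both Cdkn2a and Cdkn1b (1434045_at), which had an r of −0.631 with each other, by different probe sets of the gene.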

How the data were processed

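RNA of whole newborn skin, pooled from 3 animals per array, was measured on 8 arrays in 4 genotypes. The deposited values are standardized scores: every probe set has mean 0 and SD 1 over the arrays within 1e-06. RMA is the tool named in the submitters' processing notes, with no version, and nothing says whether logarithms were taken first. The scores allow no background correction and no filter on dim probe sets. Symbols came from the platform annotation: 20380 of 22626 fitted probe sets had 1 symbol, 691 several and 1555 none, and the 64 control probe sets were left out of the fit.

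A linear model of all 8 arrays, with a mean for each genotype and 4 residual degrees of freedom, was fitted in limma 3.58.1 (R 4.3.3), with the Benjamini-Hochberg adjustment taken across every fitted probe set. The ordinary statistic was used because standardizing a probe set leaves it unchanged. The fit was also run on simulated data with shifts of many within-genotype SDs. That run does not show how well smaller differences are found. Tables and plots used Python 3.11.15, pandas 2.3.3, SciPy 1.17.1 and matplotlib 3.10.9. The members, gene lists and tests were chosen with earlier results of these data known. Every member was described, list genes were named by call or by the 2 smallest p in double-null minus control, and a listed gene with several probe sets was read by suffix (_at first), then by lowest identifier. Alternatives were the moderated statistic, quantile normalization, a replicate block, gene means and leaving out each array.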

Additional observations from a re-analysis of the deposited data

Results flagged for a closer look

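Of the 64 control probe sets, which no comparison used, 20 had their 2 lowest scores on the control arrays, below all 6 mutant arrays. This is 31.2% of them, against 6.94% of the other probe sets.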

How the results depend on the processing

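None of the 7 CDK inhibitor probe sets was called under any alternative, and their lowest adjusted p was 0.101. The counts over all probe sets depended on the processing. The 192 calls in double-null minus control became 0 with the moderated statistic, 1 with quantile normalization, 0 with the replicate block, 118 genes with probe sets averaged and 1 to 8 with 1 array left out. In the same order, the 27 in p53-null minus control became 0, 0, 0, 15 and 0 to 5; the 92 in double-null minus pRb-null became 0, 1, 0, 72 and 0 to 6; the 8 in double-null minus p53-null became 0, 1, 0, 17 and 0 to 1; the 13 in pRb-null minus p53-null became 0, 0, 0, 24 and 0 to 0; the 36 among the 4 genotypes became 0, 0, 0, 53 and 0 to 1; the 1 for averaged loss of pRb became 0, 0, 0, 12 and 0 to 1; and the 285 for averaged loss of p53 became 0, 17, 0, 194 and 3 to 9. The counts of 0 in pRb-null minus control and in the interaction were 0 to 1 with 1 array left out and 0 otherwise. At an unadjusted p under 0.05, pRb-null minus control had 2398 probe sets by the ordinary and 2458 by the moderated statistic, and the interaction 2364 and 2235. The cause of these shifts was not tested. Quantile normalization set the median of all probe sets to −0.0245, against −0.149 without it, in double-null minus pRb-null, and to 0.0766, against 0.256, in pRb-null minus p53-null. A genotype left with 1 array is assumed to vary like the others.

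The sources do not state a pairing of arrays by replicate number. Deviations of arrays with the same number correlated between −0.163 and 0.197. The sign differed between pairs of genotypes, so these values do not settle whether some arrays were paired. With the replicate block the Cdkn1c difference of p53-null from control stayed at 1.79 (adjusted p = 0.301).

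Signs turned as follows. With Cdkn1b's probe sets averaged, 1419497_at turned to −0.884 in double-null and −0.654 in pRb-null minus control, −0.421 in double-null and −0.190 in pRb-null minus p53-null, 0.233 in the interaction and −0.537 for averaged loss of pRb, and 1434045_at to −0.230 in double-null minus pRb-null. Quantile normalization turned the 1419497_at interaction to 0.00569 and the 1434045_at averaged loss of p53 to 0.0460. With 1 array left out, the ranges that crossed 0 were, in double-null minus control, −0.610 to 0.709 for Cdkn1b 1419497_at, −0.734 to 0.0598 for Cdkn1c, −0.644 to 0.991 for Cdkn2a, −0.539 to 1.37 for Cdkn2b, −0.0859 to 2.32 for Cdkn2c; in pRb-null minus control, −0.713 to 2.10 for Cdkn1b 1419497_at, −0.340 to 2.07 for Cdkn2c; in p53-null minus control, −1.20 to 0.119 for Cdkn1b 1419497_at, −0.511 to 1.12 for Cdkn2a; in double-null minus pRb-null, −2.05 to 0.763 for Cdkn1b 1419497_at, −0.357 to 0.726 for Cdkn1b 1434045_at, −0.0102 to 0.238 for Cdkn1c; in pRb-null minus p53-null, −0.172 to 2.64 for Cdkn1b 1419497_at, −0.142 to 1.06 for Cdkn2b; in the interaction, −1.51 to 1.30 for Cdkn1b 1419497_at, −0.630 to 0.902 for Cdkn2d; in averaged loss of pRb, −0.0615 to 1.35 for Cdkn1b 1419497_at, −0.0411 to 0.913 for Cdkn2b, −0.450 to 0.755 for Cdkn2c; in averaged loss of p53, −1.30 to 0.111 for Cdkn1b 1419497_at, −0.371 to 0.170 for Cdkn1b 1434045_at, −0.498 to 0.455 for Cdkn2b; in double-null minus p53-null, −0.684 to 0.419 for Cdkn2a, −1.27 to 0.148 for Cdkn2c.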
